A study of Drosophila melanogaster with 8 samples.

Results

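The serotonin genes described here are 6 of the 17868 genes in the deposited tables, chosen by name: Trh, SerT, 5-HT1A, 5-HT1B, 5-HT2A and 5-HT7. They were proposed after changes over the day and differences between duplicates had been seen in these libraries. Their values over time are therefore given as a description, with no p-value, and counts of calls among them support nothing. RNA was sequenced from neurons sorted out of adult brains of Drosophila melanogaster, at circadian times (CT, hours counted in constant darkness) 0, 6, 12 and 18, with 2 libraries a time and 8 in all. All 8 libraries carried 1 genotype, in which Clk-GAL4 (Bloomington stock 93198), a driver of the circadian pacemaker network, switched on a nuclear green fluorescent protein and the hairpin UAS-mor-RNAi (Bloomington stock 34919). The labels write the marker as UAS-GFP-NLS and as UAS-tetR-GFP-NLS. The hairpin targets mor, the gene for moira, a subunit of the chromatin remodeller built around the Brahma ATPase. Flies had 5 days of cycles with 12 h of light and were collected on day 2 of darkness. About 2000 GFP-positive, DAPI-negative cells were sorted a sample. The study's control genotype and its chromatin accessibility libraries were not analysed here, so nothing below measures an effect of the knockdown.

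Serotonin is made from tryptophan by a hydroxylase and then by an aromatic amino acid decarboxylase. It is packed into vesicles, released, taken back up by a plasma membrane transporter and sensed by receptors coupled to G proteins. In the fly brain it is made by small clusters of serotonergic neurons whose fibres spread widely, and it is known for effects on sleep, aggression, feeding and learning. Serotonin receptors are also known in clock neurons, where 5-HT1B signalling alters how the clock responds to light.

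Total estimated counts ran from 15006258 in CT12 replicate 2 to 29346348 in CT0 replicate 1. A floor of 3 counts was 0.102 to 0.2 CPM (counts scaled to library size by TMM), for counting error only. Markers of cell types were set beside the sort. All 14 clock neuron markers were above 1 CPM in every library. So were all 5 Kenyon cell, 4 dopaminergic and 3 octopaminergic markers, so this threshold does not single out clock neurons. Summed over each list, 8 glial markers had 62.2 to 187 CPM, 6 hemocyte markers 72.6 to 241 CPM and 6 photoreceptor markers 2.16 to 356 CPM. The 5 Kenyon cell markers, which include the broadly used peptide gene sNPF, had 1075 to 1970 CPM. Among the glial genes the defining factor repo reached at most 0.714 CPM, and Gs2 had 25.2 to 130 CPM. CT6 replicate 1 stood apart: Pdf, the neuropeptide of the ventral lateral clock neurons, had 89.3 CPM there, against 37187 CPM in CT6 replicate 2 and 1647 to 26519 CPM in the other 6 libraries. The summed clock neuron markers, which include Pdf, were lowest there, at 10005 CPM, and highest in CT6 replicate 2, at 43770 CPM. Pdf made up most of the latter sum, so the sums do not show whether the other markers were low. Taken singly, per (35.5 CPM) and Pdfr (137 CPM) were highest of the 8 libraries in CT6 replicate 1. The marker cry was lower there than in CT6 replicate 2, at 360 against 822 CPM. Changes of the 6 genes between CT18 and CT6 are given with and without CT6 replicate 1. In bulk RNA, fewer cells of a type and less RNA per cell cannot be told apart. The targeted gene mor had 4.14 and 4.41 CPM at CT18, below the 7.9 to 21.8 CPM of the other 6 libraries, with no control genotype beside it.

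Taken as levels per transcript length, in the deposited TPM (which sums to the same total in each library), the gene for making serotonin was the most abundant of the 6 and the receptors were the least. Trh, the neuronal tryptophan hydroxylase that catalyses the first and rate-limiting step, averaged 288 ± 199 TPM (SD, n = 8 libraries), at percentile 95.7 of the 13512 genes with a count. SerT, the plasma membrane transporter that takes serotonin back up, averaged 77.6 ± 68 TPM, at percentile 86.1. Both are defining genes of serotonergic neurons, and both were high in cells sorted with a clock neuron driver. Whether their transcripts came from clock neurons or from other sorted cells was not tested.

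All 4 receptors had lower mean levels than SerT. 5-HT1A, a receptor that lowers cyclic AMP in flies, averaged 15.4 ± 4.54 TPM. 5-HT1B, the related receptor that also lowers cyclic AMP, averaged 5.08 ± 3.45 TPM. Means were 2.37 ± 0.589 TPM for 5-HT7, which raises cyclic AMP, and 1.87 ± 1 TPM for 5-HT2A, which signals through calcium. Among the 4 receptors' summed TPM, 5-HT1A made up 55.8 to 77.2% in each library, and 5-HT2A 3.81 to 12.8%.

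The order of levels was set against the spread over libraries, as the log2 ratio of TPM between neighbours within each library. Trh lay above SerT by 1.98 ± 0.46 (SD, n = 8), SerT above 5-HT1A by 2.09 ± 0.78, and 5-HT1A above 5-HT1B by 1.75 ± 0.62. Each of these 3 steps had the same direction in 8 of 8 libraries. 5-HT1B lay above 5-HT7 by 0.95 ± 0.66, with a range of −0.05 to 2.28. 5-HT7 lay above 5-HT2A by 0.49 ± 0.58, with a range of −0.28 to 1.35. These last steps each held in 7 of 8 libraries, and the difference between 5-HT7 and 5-HT2A was smaller than its spread. Scaled instead as CPM per kilobase, the means kept the same order, at 264, 70, 14.3, 4.58, 2.19 and 1.71 for Trh, SerT, 5-HT1A, 5-HT1B, 5-HT7 and 5-HT2A.

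**Figure D1:**
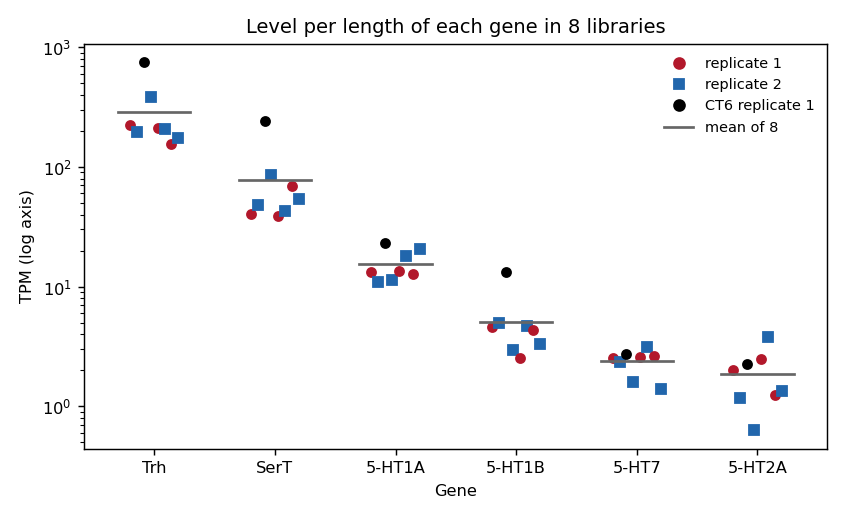
Level of each gene in TPM on a log axis, with 1 point a library, ordered by mean. Circles are replicate 1, squares replicate 2, the black circle is CT6 replicate 1, and the line is the mean of 8 libraries, from 288 TPM for Trh to 1.87 TPM for 5-HT2A; CT6 replicate 1 was the highest library for Trh, SerT, 5-HT1A and 5-HT1B.

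Trh is carried on the minus strand of chromosome arm 3L, from 1190384 to 1193173 in dm6 coordinates (FBgn0035187, named Trhn in the Ensembl annotation used here). Its 1 annotated transcript has 2183 bases, of which 1665 are coding, and this equals the length in the deposited tables, which list the developmental gene trh (trachealess) separately. At CT0 Trh had 437 CPM in replicate 1 and 359 CPM in replicate 2. It had 1157 and 817 CPM at CT6 and 364 CPM in both CT12 libraries. The CT18 libraries had 277 and 340 CPM. Both CT6 libraries lay above the other 6, and CT18 was the lowest time within each replicate series. The CT6 value was 2.65 times the next highest time in replicate 1 and 2.24 times in replicate 2.

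From these values, Trh had a log2 change of −1.68 ± 0.27 (SE of the fit over 8 libraries) at CT18 relative to CT6, or 3.2-fold higher at CT6. The change was −1.40 without CT6 replicate 1 and −1.90 without CT6 replicate 2. The fitted 24-hour amplitude, from mean to peak, was 0.84 ± 0.13 in log2 units with a peak at 5.7 h, and 0.70 without CT6 replicate 1. The direction held in 18 of 18 alternative settings. Both CT6 libraries lay above both CT18 libraries, so leaving out 1 library could not turn it. CT12 and CT0 differed little, with a log2 change of −0.13 ± 0.26 at CT12 relative to CT0.

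SerT (FBgn0010414, 2R, 24404595 to 24411074, minus strand) also had its highest values at CT6. It had 122 and 136 CPM at CT0 and 586 and 279 CPM at CT6. The CT12 libraries had 103 and 117 CPM, and the CT18 libraries 191 and 161 CPM. Both CT6 libraries again lay above the other 6, but unlike Trh, SerT was lowest at CT12 in both replicate series and its CT18 libraries ranked next after CT6. Its CT6 duplicates differed 2.1-fold, against 1.11- to 1.19-fold at the other times. The CT6 value was 3.07 times the next highest time in replicate 1 and 1.74 times in replicate 2.

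For SerT the log2 change was −1.30 ± 0.34 at CT18 relative to CT6, or 2.46-fold higher at CT6. It was −0.67 without CT6 replicate 1 and −1.73 without CT6 replicate 2, with the same direction in 18 of 18 alternative settings. As for Trh, leaving out 1 library could not turn the direction. The amplitude was 0.66 ± 0.17 in log2 units with a peak at 5.3 h, and 0.35 without CT6 replicate 1. The log2 change at CT12 relative to CT0 was −0.23 ± 0.33, and the CT12 libraries lay below the CT0 libraries.

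**Figure D2:**
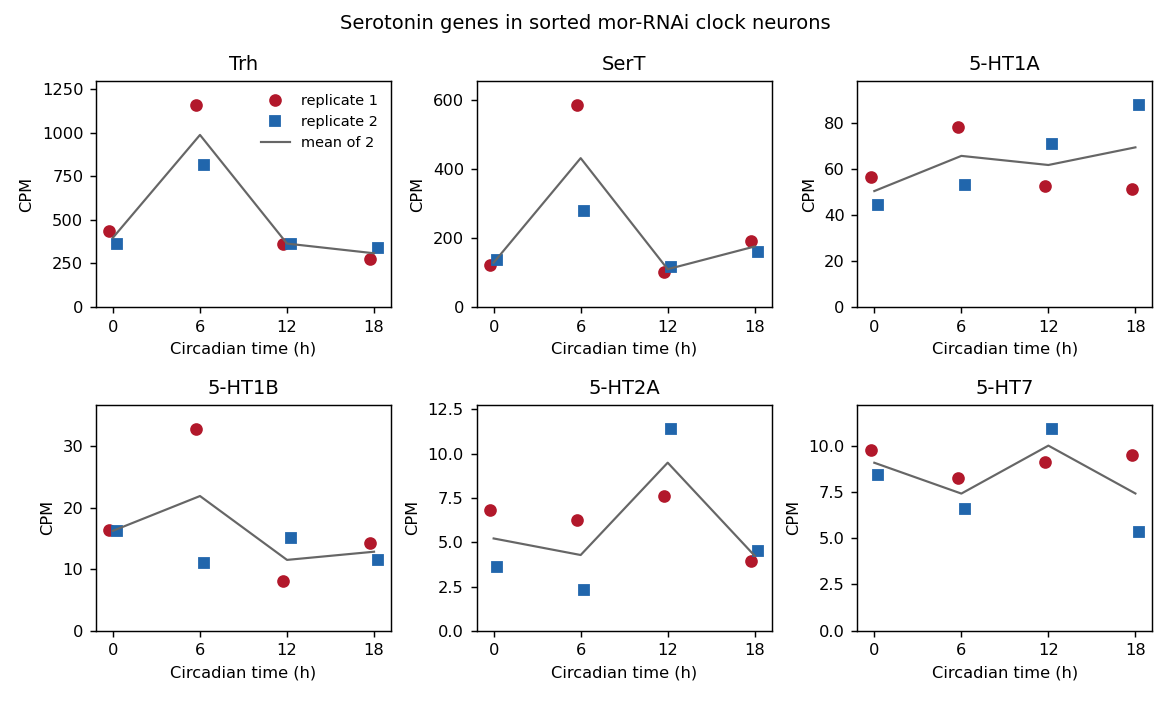
TMM-normalized CPM of the 6 genes against circadian time in hours, each panel on its own axis from 0. Red circles are replicate 1, blue squares replicate 2 and the line joins the means of 2; Trh and SerT were highest at CT6 in both replicates, 5-HT2A at CT12 in both, and the highest time of the other 3 receptors differed between replicates.

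SerT transcripts were set against Trh as a ratio of TPM in each library. The ratio was 0.182 and 0.244 at CT0, followed by 0.322 and 0.221 at CT6. The CT12 libraries had ratios of 0.183 and 0.208, and the CT18 libraries 0.45 and 0.308. Both genes were thus high at CT6, while the ratio was highest in a CT18 library. Across the 8 libraries log2 CPM of Trh and SerT had a Pearson r of 0.837, and 0.753 after each library's length trend was removed. Over 7 libraries, without CT6 replicate 1, it was 0.56. This is a description over points that share library, depth and length trend.

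5-HT1A (FBgn0004168, 2R, 19067155 to 19121958, plus strand) was the most abundant of the 4 receptors and showed no ordering by time that its duplicates shared. Its libraries held 56.5 and 44.1 CPM at CT0 and 78.2 and 52.9 CPM at CT6. They held 52.3 and 70.9 CPM at CT12, and 51 and 87.5 CPM at CT18. Replicate 1 was highest at CT6 and lowest at CT18, while replicate 2 was highest at CT18 and lowest at CT0. The log2 change was 0.08 ± 0.34 at CT18 relative to CT6, and 0.39 without CT6 replicate 1. Over the alternatives it ran from −0.36 without CT18 replicate 2 to 0.54 with the length trend removed. At CT12 relative to CT0 it was 0.29 ± 0.34. The gene Ir56a lies inside the span of 5-HT1A on the other strand, with 45 to 72 counts a library against 1044 to 2161 for 5-HT1A.

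5-HT1B (FBgn0263116, 2R, 19022325 to 19032642, minus strand) lies 34512 bases from 5-HT1A. Values were 16.3 and 16.2 CPM at CT0 and 32.8 and 11 CPM at CT6. The later times had 8.04 and 15 CPM (CT12) and 14.2 and 11.5 CPM (CT18). CT6 held both the highest library and, in replicate 2, the lowest value of that replicate's series. The CT6 duplicates differed 2.96-fold, with 95% Poisson intervals of 30.7 to 35 CPM and 9.67 to 12.6 CPM that cover counting error only. The log2 change at CT18 relative to CT6 was −0.77 ± 0.53, but 0.22 without CT6 replicate 1 and −1.34 without CT6 replicate 2. Both CT12 libraries lay below both CT0 libraries, with a log2 change of −0.50 ± 0.53.

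The 5-HT1B counts of CT6 replicate 1 were also assigned to a different mean transcript length. The deposited mean length of 5-HT1B was 3475 bases in that library and 4026 bases in the other 7. The annotation has transcripts of 2980, 3861 and 4026 bases, and the shortest has a 3′ UTR of 214 bases, against 1224 bases in the longest. If only the shortest and the longest were present, 52.7% of 5-HT1B transcripts in CT6 replicate 1 and 0% in the other 7 would be the shortest one. Lengths of 5-HT7 varied less, and its long form of 4486 bases would make up 94.5 to 100% of transcripts on the same reckoning.

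5-HT2A (FBgn0087012, 3R, 4612870 to 4633304, plus strand) had its highest value at CT12 in both replicate series. The CT0 libraries had 6.84 and 3.59 CPM, and the CT6 libraries 6.23 and 2.33 CPM. Those of CT12 had 7.59 and 11.4 CPM, and those of CT18 3.96 and 4.51 CPM. In replicate 1 the CT12 value was 1.11 times that at CT0, the next highest time, and in replicate 2 it was 2.53 times that at CT18. These values rest on 49 to 222 counts a library. The lowest of them, 2.33 CPM in CT6 replicate 2, has a 95% Poisson interval, for counting error only, of 1.73 to 3.08 CPM.

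The log2 change of 5-HT2A at CT12 relative to CT0 was 0.86 ± 0.69, and the CT12 libraries lay above the CT0 libraries. It stayed positive in 18 of 18 alternative settings, but leaving out 1 library could not turn it, as those libraries did not overlap. It ran from 0.47 without CT0 replicate 2 to 1.41 without CT0 replicate 1. At CT18 relative to CT6 it was −0.02 ± 0.69, with 0.86 without CT6 replicate 1 and −0.55 without CT6 replicate 2.

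5-HT7 (FBgn0004573, 3R, 30968236 to 31016875, minus strand) had no time that was highest in both replicate series. Its values were 9.75 and 8.4 CPM at CT0 and 8.25 and 6.57 CPM at CT6. CT12 gave 9.1 and 10.9 CPM, and CT18 gave 9.49 and 5.34 CPM. Replicate 1 spanned 1.18-fold over the 4 times and replicate 2 spanned 2.04-fold. The log2 changes were 0.00 ± 0.50 at CT18 relative to CT6 and 0.14 ± 0.50 at CT12 relative to CT0, with 0.18 in place of 0.00 without CT6 replicate 1. The CT18 duplicates differed 1.77-fold, more than those of any other time.

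Across time, edgeR's quasi-likelihood fit with Benjamini-Hochberg adjustment at 0.05 called 0 of the 9999 genes that passed the filter on low counts (0%) for any change, the 24-hour harmonic, CT12 against CT0 and CT18 against CT6. The 6 serotonin genes were all among those tested, so 0 of 6 were called. At an unadjusted p under 0.05 the numbers were 330, 517, 211 and 965 genes, in that order. With no change at all, a share of 0.05 of the 9999 genes would be expected there, which is more than 330 or 211 and close to 517. Without the filter, edgeR called 249 (1.84%), 250 (1.85%), 101 (0.748%) and 192 (1.42%) of 13499 genes, with 2, 2, 0 and 2 of the serotonin genes among them. DESeq2 called 28 (0.280%), 33 (0.330%), 12 (0.120%) and 47 (0.470%) genes, with 2, 1, 0 and 2 serotonin genes, and limma-voom called 0 in each. Without CT6 replicate 1, which leaves 1 library at CT6, the edgeR log2 change at CT18 relative to CT6 was −1.40 for Trh and −0.67 for SerT. The genes were proposed with these contrasts known, so these counts are a description.

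Over all genes tested, duplicates that do not overlap between times were common. Both CT18 libraries lay below both CT6 libraries in 21.6% of genes and above them in 20.1%. Among the serotonin genes, 2 of 6 (Trh and SerT) lay below and 0 of 6 above. Both CT12 libraries lay above both CT0 libraries in 12.0% of genes and for 5-HT2A, and below them in 13.1% of genes and for SerT and 5-HT1B. In 361 genes (3.61%), Trh and SerT among them, both CT6 libraries exceeded the other 6.

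**Figure D3:**
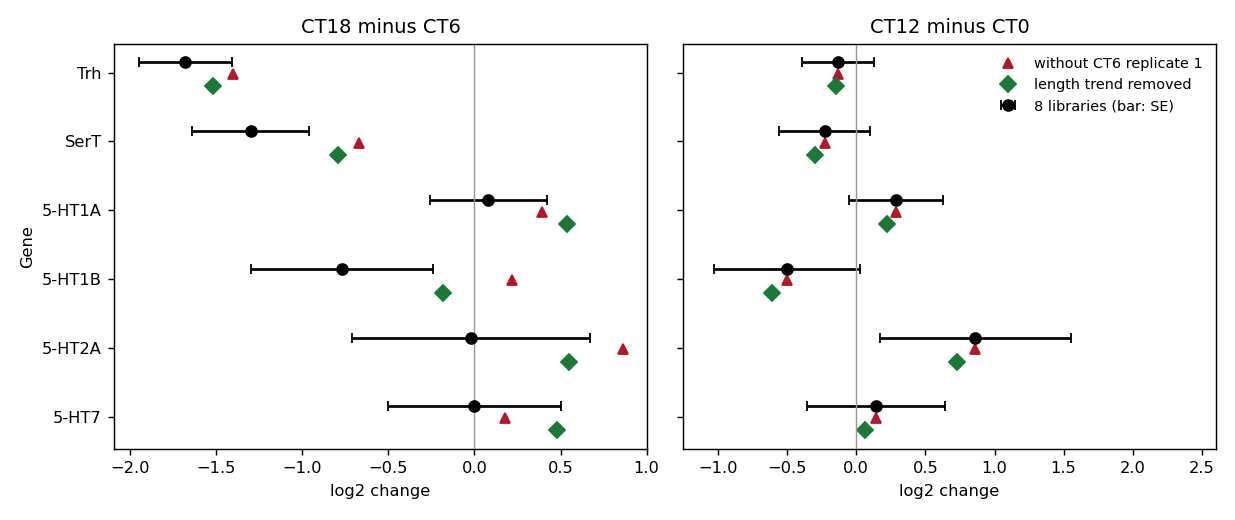
Log2 change of each gene at CT18 relative to CT6 on the left and at CT12 relative to CT0 on the right. Black circles with SE bars use 8 libraries, triangles leave out CT6 replicate 1 and diamonds have the length trend removed; Trh and SerT stayed below 0 on the left under each, while 5-HT1B went to 0.22 and 5-HT2A to 0.86 without CT6 replicate 1.

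How closely duplicates agreed differed among the 6 genes. The within-time SD of log2 CPM was 0.23 for Trh, 0.34 for 5-HT7, 0.39 for 5-HT1A, 0.40 for SerT, 0.63 for 5-HT2A and 0.65 for 5-HT1B, and its median over all genes tested was 0.42. Low counts spread more, so each gene was also set beside the 500 genes nearest to it in level. Their median SD was 0.26 for Trh and SerT, 0.30 for 5-HT1A, 0.44 for 5-HT1B, 0.65 for 5-HT2A and 0.54 for 5-HT7. SerT, 5-HT1B and 5-HT1A thus spread more than the median of genes at their level, and Trh, 5-HT2A and 5-HT7 less. The largest duplicate differences of Trh, SerT, 5-HT1B and 5-HT2A were all at CT6, where they were 0.50, 1.07, 1.57 and 1.40 in log2 units, each time with replicate 1 higher.

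Counts followed transcript length differently from library to library, and all 6 genes were longer than the median gene. Trends were taken over the 5766 genes with mean log2 CPM of at least 4. Across these genes, the Spearman correlation of effective length with a library's deviation from the mean was −0.533 and −0.563 at CT18. At CT6 it was 0.684 and −0.223. It was −0.114 and 0.468 at CT12 and −0.342 and 0.412 at CT0. Mean effective lengths ran from 1951 bases for Trh to 4324 bases for 5-HT1A, against a median of 1607 bases over the genes tested. The median log2 change at CT18 relative to CT6 was 0.45 in the shortest of 12 length classes, around 360 bases, and −0.53 in the class around 4090 bases.

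With each library's length trend removed, the log2 change at CT18 relative to CT6 was −1.52 for Trh and −0.79 for SerT. For the receptors it was 0.54 for 5-HT1A, −0.18 for 5-HT1B, 0.55 for 5-HT2A and 0.48 for 5-HT7. With median levels of 14.6, 5.37 and 8.75 CPM, 5-HT1B, 5-HT2A and 5-HT7 lay below the level used to fit the trend. Their values thus rest on a trend from more abundant genes. The change of Trh was thus little altered and that of SerT was reduced, while those of 3 receptors took values near 0.5. The within-time SD of SerT was 0.25 after the removal, against 0.40 before it.

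**Figure D4:**
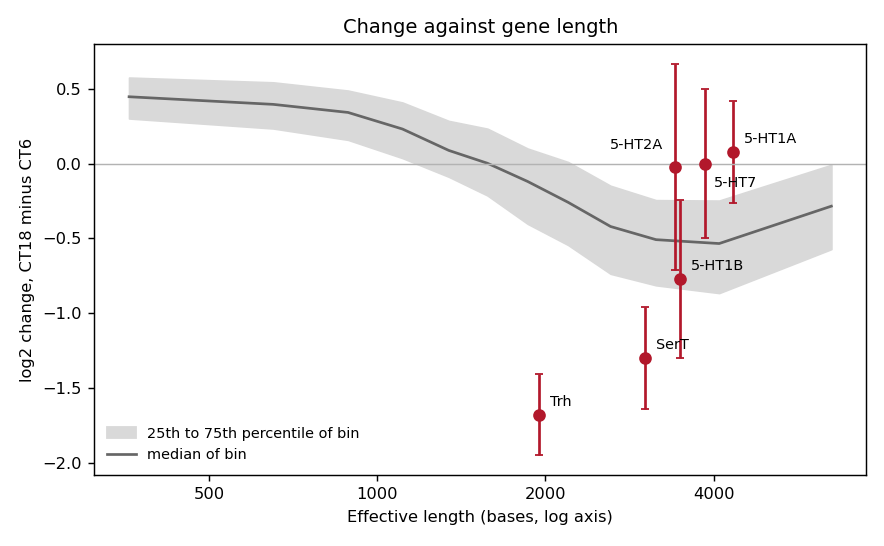
Log2 change at CT18 relative to CT6 against effective length in bases on a log axis. Red points with SE bars are the 6 genes, the line is the median of 12 length classes and the band their 25th to 75th percentile. The classes hold the 5766 genes with mean log2 CPM of at least 4, a level that 5-HT1B, 5-HT2A and 5-HT7 did not reach. Trh at −1.68 and SerT at −1.30 lay below the band for their lengths, and 5-HT1A, 5-HT2A and 5-HT7 lay above it.

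Other genes needed to make and handle serotonin were followed as a list of 11, of which 0 passed edgeR's tests on the filtered genes. At CT18 relative to CT6, 5 were lower and 6 higher, with a median log2 change of 0.03, against 51.2% lower and a median of −0.02 over all genes tested. Without CT6 replicate 1, 7 were lower and the median was −0.04. Ddc, the decarboxylase that completes serotonin and dopamine synthesis, had 930 and 851 CPM at CT18, against 1634 and 992 CPM at CT6. Both its CT6 libraries thus exceeded both CT18 libraries, with a log2 change of −0.56 ± 0.29 (edgeR adjusted p = 0.53) and −0.16 without CT6 replicate 1. Vmat, which loads monoamines into vesicles, had 704 and 1042 CPM at CT18, against 2854 and 937 CPM at CT6. Its log2 change of −1.12 ± 0.45 (edgeR adjusted p = 0.51) was −0.10 without CT6 replicate 1, so that library decided the value.

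The transporter-like gene prt had 28.3 and 31.6 CPM at CT18, against 46.6 and 81.3 CPM at CT6. It had the smallest p of the list in that contrast, with a log2 change of −1.10 ± 0.32 (edgeR adjusted p = 0.51), and −1.44 without CT6 replicate 1. Unlike Vmat, prt was higher in CT6 replicate 2 than in replicate 1. The tetrahydrobiopterin cofactor of the hydroxylase is made and recycled by Pu, pr, Pcd and Dhpr. Their log2 changes were −0.40 ± 0.34, 0.49 ± 0.28, 0.21 ± 0.26 and 0.13 ± 0.25 at CT18 relative to CT6, with edgeR adjusted p of 0.67, 0.55, 0.77 and 0.88. Without CT6 replicate 1 they were −0.38, 0.15, −0.04 and −0.09. AANAT1, an acetyltransferase that acts on monoamines, had 0.03 ± 0.23 (edgeR adjusted p = 0.99). None of these 5 passed, and the changes of Pcd, Dhpr and AANAT1 were under 1 SE.

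Hn, the phenylalanine hydroxylase, ranged from 0 to 13.6 CPM, and its log2 change was −0.69 ± 1.37 (edgeR adjusted p = 0.88), or 1.67 without CT6 replicate 1. It had the smallest p of the list for the 24-hour harmonic (edgeR adjusted p = 0.87). Without the filter, the edgeR adjusted p for the harmonic was 0.0031 for Hn and 0.04 for Vmat. This list was chosen with earlier results of these data known, so both values are a description. The CT12 duplicates of Hn had 13.6 and 1.68 CPM, and the amplitude of Vmat was 0.65 in log2 units, or 0.34 without CT6 replicate 1. AANATL2, a related acetyltransferase, was near the floor, with 1.39 and 0.311 CPM at CT18 against 0 and 0.143 CPM at CT6. The fifth fly serotonin receptor, 5-HT2B, had 19.8 and 26.1 CPM at CT18, against 16 and 16.3 CPM at CT6. Its log2 change was 0.51 ± 0.36 (edgeR adjusted p = 0.61) and 0.49 without CT6 replicate 1. Trh, SerT, Vmat and Ddc were all highest in CT6 replicate 1, but in CT6 replicate 2 Trh and SerT were still above the other times while Vmat, at 937 CPM, was not.

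**Figure D5:**
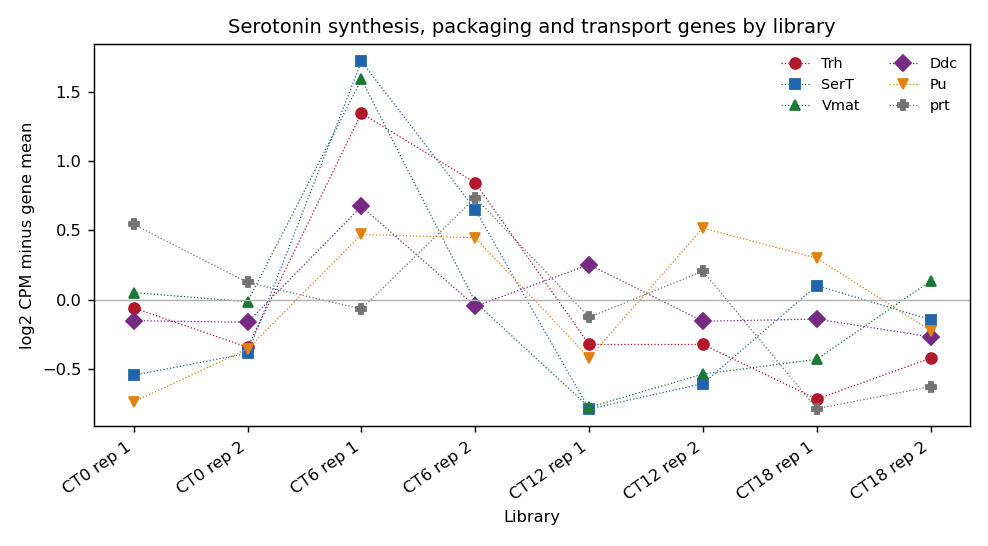
Log2 CPM minus each gene's mean over 8 libraries, for Trh, SerT, Vmat, Ddc, Pu and prt, in each library in order of circadian time. Trh, SerT, Vmat and Ddc were highest in CT6 replicate 1, and in CT6 replicate 2 Trh (817 CPM) and SerT (279 CPM) stayed above their values at the other times.

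Markers of monoamine neurons other than the 6 genes were set beside these values. The 5 serotonergic ones (Vmat, Ddc, Hn, Pu and prt) summed to 1991 and 2153 CPM at CT18, against 4908 and 2373 CPM at CT6, and to 2011 to 2136 CPM at the other times. All 5 had a count, and 4 exceeded 1 CPM in every library. The high sum of CT6 replicate 1 lay in Vmat, at 2854 CPM, and Ddc, at 1634 CPM, which dopaminergic neurons share, and Vmat also serves octopaminergic neurons. Genes specific to those neurons stayed within their range elsewhere. The dopaminergic genes ple and DAT summed to 668 CPM in CT6 replicate 1 and to 157 to 975 CPM in the other 7 libraries. The lowest of these, 157 CPM, was CT6 replicate 2, so the CT6 duplicates differed in these genes. The octopaminergic genes Tdc2 and Tbh summed to 263 CPM in CT6 replicate 1 and to 155 to 442 CPM in the other 7. Without Vmat, Ddc and prt, the serotonergic list left only Hn and Pu. These summed to 374 CPM in CT6 replicate 1, of which Pu had 367 CPM, and to 159 to 380 CPM in the other 7. Neither gene is specific to serotonergic neurons, so this sum cannot report on the share of those cells. The part of other monoamine neurons in the values of Trh and SerT was not tested.

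Of 6 transcription factors that specify serotonergic neurons in the embryo, 3 passed the filter on low counts. The others, eg, HGTX and en, reached at most 0.333, 1.18 and 2.24 CPM, the last in CT6 replicate 1. Of the 3 tested, 2 were lower at CT18 and 0 passed. The smallest p was that of exex, which ranged from 0 to 9.43 CPM (edgeR adjusted p = 0.67 at CT18 relative to CT6). For the harmonic, the edgeR adjusted p of exex was 0.87 with the filter and 0.00013 without it. Its CT12 duplicates disagreed, at 0 and 9.43 CPM. The fitted amplitude of 5.11 in log2 units was 1.39 without CT12 replicate 2, so the value rested largely on that library. Of 18 intracellular partners of serotonin receptors, 11 were lower at CT18 than at CT6 and 0 passed, with a median log2 change of −0.17, or −0.07 without CT6 replicate 1 and 0.11 with the length trend removed. Pka-C1, the catalytic subunit of protein kinase A, had the smallest p and 269 and 251 CPM at CT18, against 597 and 447 CPM at CT6. Its log2 change was −1.01 ± 0.28 (edgeR adjusted p = 0.51) and −0.78 without CT6 replicate 1.

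Of 16 genes of other monoamine systems, 10 were lower at CT18 than at CT6 and 0 passed, with a median log2 change of −0.39, or −0.01 without CT6 replicate 1. The 6 serotonin genes had a median of −0.39 with 4 lower, 5-HT2A by 0.02 only. Without CT6 replicate 1 their median was 0.20 with 2 lower, and with the length trend removed it was 0.15 with 3 lower, so the sign of the median turned. The monoamine gene with the smallest p was TyrR, a tyramine receptor, with 3.27 and 2.7 CPM at CT18 against 12.1 and 8.04 CPM at CT6. Its log2 change was −1.75 ± 0.63 (edgeR adjusted p = 0.51) and −1.43 without CT6 replicate 1.

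The 3 genes whose log2 CPM followed each serotonin gene most closely were listed by Pearson r over the 8 libraries among 9998 genes. For Trh they were CG30076 (0.977), CG12020 (0.968) and CG5867 (0.947), whose highest libraries were CT6 replicate 1 and then replicate 2. These genes were near or at the floor: CG30076 had 2.39 and 0.524 CPM at CT6 and at most 0.106 CPM elsewhere. CG12020 had 1.52 and 0.571 CPM at CT6 and 0 elsewhere, so they passed the filter only through CT6 and their r follows from it. CG5867 had 77 and 1.62 CPM at CT6 and at most 0.0646 CPM elsewhere, so the same holds for CG5867. For SerT they were Lmx1a (0.935), CG15717 (0.931) and Cc2d2a (0.931). Cc2d2a had 1.34 and 0.666 CPM at CT6 and at most 0.209 CPM elsewhere. It passed the filter only through CT6, and its r follows from that. Lmx1a, a LIM homeodomain factor, had 86.9 and 19.1 CPM at CT6 and 7.81 to 15.4 CPM in the other 6 libraries.

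For 5-HT1A the closest genes were htk (0.97), ato (0.962) and pasha (0.928), and for 5-HT1B they were Lon (0.965), CG6204 (0.949) and Vps15 (0.948). For 5-HT2A they were CR46274 (0.951), Pask (0.942) and fuss (0.932), and for 5-HT7 CG5968 (0.95), CG43778 (0.934) and CG11768 (0.908). In some libraries ato, at 0 to 3.53 CPM, and CR46274, at 0.143 to 0.517 CPM, were near or at the floor. With length trends removed, r was 0.453 for CG5968 with 5-HT7, 0.563 for CR46274 with 5-HT2A and 0.666 for ato with 5-HT1A. It was at least 0.71 for the other 15 pairs. Without CT6 replicate 1, r was lowest for Lmx1a with SerT, at 0.773. Each r is the highest of many over 8 points and describes these libraries.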

How the data were processed

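The authors deposited 1 gene table a library with estimated counts, not normalized, and TPM values, beside a length and an effective length, per the file headers. The tables follow Salmon's layout, and Salmon, DRAGEN and dm6 appear in the submitters' processing notes. Which versions, annotation and strand setting were used was not given in the sources used here. Overlapping genes thus cannot be separated by strand. Per the labels, part of each lysate went into a NEBNext low-input cDNA kit and then Nextera XT, with paired reads of 100 bases.

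Groups follow the circadian time in the titles. Nothing says that replicates came from separate flies, so a p-value here covers the spread among libraries, which may be technical. Counts were rounded, filtered with filterByExpr (minimum count 10; 9999 of 13512 genes with a count kept, the 6 serotonin genes among them) and scaled by TMM. edgeR 4.0.16 in R 4.3.3 was fitted to the 8 libraries by time, with Benjamini-Hochberg adjustment over all genes tested. Alternatives used limma 3.58.1, DESeq2 1.42.0, other filters and scalings, a replicate block, removal of each library's lowess trend against effective length, and each library left out in turn. The fits were tested on simulated data. The 6 genes and the gene lists were chosen with earlier results of these data known. Named from the lists were all serotonin genes and, in the others, the genes with the smallest p in CT18 against CT6 and in the harmonic. Coordinates and transcripts come from Ensembl release 115 (BDGP 6.54).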

Additional observations from a re-analysis of the deposited data

How the results depend on the processing

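Against 0 genes called by edgeR, leaving genes unfiltered called 249 for any change, 250 for the harmonic, 101 at CT12 against CT0 and 192 at CT18 against CT6. DESeq2 called 28, 33, 12 and 47. With CT6 replicate 1 also left out, chosen after seeing the data, these were 244, 197, 125 and 109 without the filter and 47, 38, 14 and 20 in DESeq2. Leaving out 1 library called 0 to 5, 0 to 1, 0 to 1 and 0 to 1; the 5 came without CT18 replicate 2. Mean TPM of the 6 genes moved by less than 1 SD in every alternative run for it. Leaving out 1 of 8 libraries cannot move a mean by 1 SD, so those runs could not show otherwise. With 1 library left out, the mean ran from 222 to 307 TPM for Trh and from 54.2 to 83.2 TPM for SerT. At CT18 relative to CT6, Trh and SerT kept their direction in 18 of 18 alternatives, 5-HT1B in 17, 5-HT1A in 14, 5-HT7 in 11 and 5-HT2A in 9. For Trh and SerT, whose CT6 and CT18 libraries did not overlap, leaving out 1 library could not turn the direction. At CT12 relative to CT0, Trh turned to 0.02 without CT0 replicate 1. Other serotonin genes whose log2 change at CT18 relative to CT6 turned direction were Hn (0.41 with the replicate block, 0.33 with block and length trend removed, 1.67 and −1.53 as the extremes with 1 library left out), Pcd (−0.21 with the length trend removed, with or without the block, and −0.04 to 0.52 with 1 library left out), Dhpr (−0.18, −0.19 with the block, and −0.09 to 0.39) and AANAT1 (−0.23 with or without the block, −0.0078 in log2 TPM with a pseudocount of 1 or 0.1, and −0.0079 to 0.06); the cause was not tested. Correlations of same-numbered deviations between times were 0.211 to 0.559 among CT0, CT12 and CT18 and −0.207 to 0.0332 for the pairs with CT6, so not every pair exceeded 0.1 and the libraries were not treated as paired. The replicate block called 0 genes in each test and gave −1.66 for Trh and −1.27 for SerT. The rarest receptor, 5-HT2A, rested on 49 to 222 counts a library.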
